A study of Mus musculus with 9 samples.

Results

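The response of NIH-3T3 cells to a synthetic miR-378-3p was measured as 3 arrays of cells given a miR-378 mimic against 3 arrays of cells given a control siRNA. These 6 arrays are part of a series of 9, and the comparison covers the 11963 genes of 19938 on the deposited table whose mean signal reached the level filter of 3.86 (log2). NIH-3T3 is an established mouse fibroblast line, grown here in RPMI with fetal calf serum. The mimic, the control RNA and, in the remaining 3 arrays, an inhibitor of miR-378-3p were each transfected with DharmaFECT 1 at 25 nM, and RNA was taken after 48 h. The control is a RISC-free siRNA, an RNA kept out of the silencing complex, so all groups carry the transfection reagent and a foreign RNA, but the control RNA is not loaded as a microRNA. The series was made to find targets of miR-378-3p. All groups are of 1 cell line, and the labels speak of triplicates without naming separate cultures, so p-values speak only of how these samples differ among themselves, possibly for technical reasons.

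A microRNA guides an Argonaute protein to messenger RNAs that pair with its seed, the bases near its 5′ end, and the bound messages are translated less and decay sooner. Direct targets therefore fall, mostly by modest amounts, and genes downstream of those targets can move either way by the later hours. miR-378 lies within an intron of Ppargc1b, a coactivator of mitochondrial and lipid genes, and has been studied in adipocytes, muscle, liver and tumour cells. The arrays report steady-state RNA of whole cultures, in which fewer cells of a kind and less RNA per cell cannot be told apart.

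Values are log2 signals after robust multi-array averaging, and a change is the mean of the mimic arrays minus the mean of the control arrays on that scale. A gene is said to have risen or fallen where the limma test gave an adjusted p below 0.05 over all genes tested. Mimic 3 stood apart from the other arrays of its group. The SD over genes of an array's distance from the control mean was 0.14 on mimic 1 and on mimic 2, and 0.21 on mimic 3. It was 0.06 on each control, but each control is part of that mean, which by itself makes its distances smaller. On mimic 3, 311 genes lay at least 0.5 below the control mean and 81 at least 0.5 above it, against 57 and 29 on mimic 1 and 25 and 47 on mimic 2. Its brighter genes were shifted as a body, with a median distance of -0.14 in the brightest of 4 signal classes of equal size and 0.03 in the dimmest. On the first principal component, which held 60.5% of the variance of the 9 arrays, mimic 3 scored -20.5, mimic 1 -9.1, mimic 2 -3.9, the controls -4.4 to -2.8 and the inhibitor arrays 9.9 to 20.9. For some genes and lists the values are given with and without it, and other values also moved when it was left out.

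**Figure D1:**
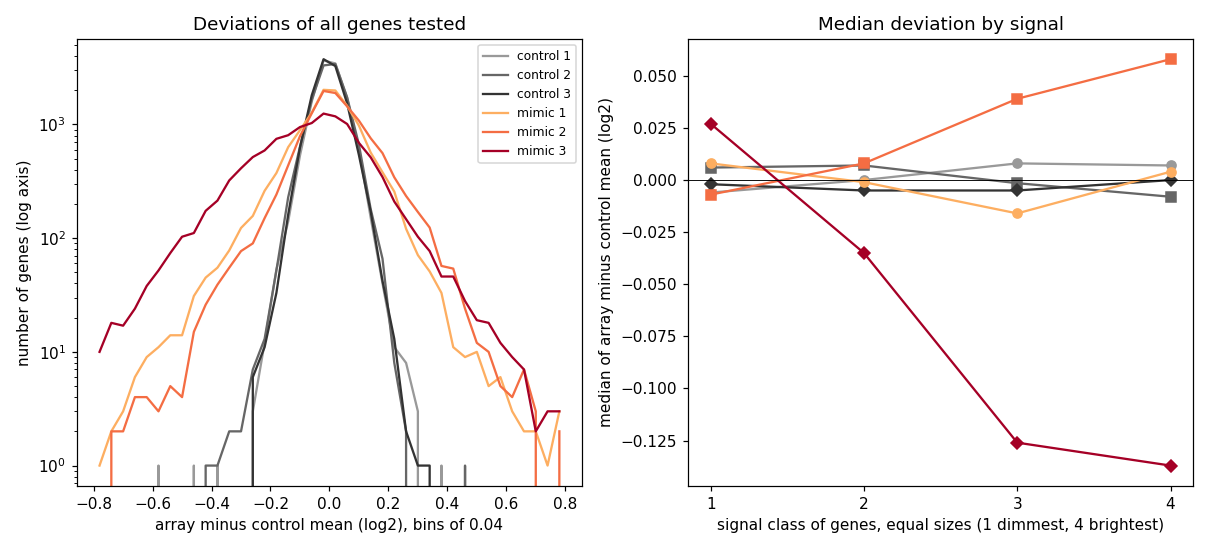
Left, number of genes (log axis) by distance of each array from the control mean (log2, bins of 0.04), 1 line per array. Right, median of that distance in the signal classes (class 1 dimmest), with array colours as on the left, circles for replicate 1, squares for replicate 2 and diamonds for replicate 3. The control curves are narrow, in part because each control enters the control mean, and the mimic curves are wide on both sides. Mimic 3 leans to lower values, with its median in the brightest class at -0.14.

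With the mimic, 425 genes passed the threshold, 3.55% of those tested. Of these, 293 fell (2.45%) and 132 rose (1.10%). At an unadjusted p below 0.05, 1202 genes were lower and 701 higher. The changes were small. Among the falls the median size was 0.37 on the log2 scale, which is 1.29-fold, with quartiles at 0.30 and 0.47. Among the rises the median was 0.35 or 1.27-fold, with quartiles at 0.29 and 0.43. At 1.5-fold or more, 23 genes fell and 13 rose, and at 1 or more on the log2 scale 3 fell and 2 rose. In each of the 425 genes the 3 mimic arrays lay outside the range of the 3 control arrays. Groups did not overlap for 1515 genes on the lower side (12.7% of genes tested) and for 1037 on the higher side (8.67%), so most genes with separated groups did not pass the threshold.

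Most of the array moved little. The quartiles of all changes were -0.08 and 0.05, and the 5th and 95th percentiles -0.23 and 0.17, around a median of -0.01. The lower tail was the longer, with the first percentile at -0.42 and the 99th at 0.31. Without mimic 3 these became -0.37 and 0.34, and the median 0.01. Calls were concentrated in genes of higher signal: 9 fell and 6 rose among the 2991 genes of the dimmest class, 41 and 14 in the second, 116 and 45 in the third and 127 and 67 in the brightest.

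The split between falls and rises depended on mimic 3. Rises made up 31.1% of all calls with the 9 arrays and 51.5% without mimic 3, when 300 genes rose and 282 fell. Without mimic 2 they made up 20.2%, with 100 rises and 395 falls. Scaling moved the split as well: rises were 44.2% of calls after quantile normalization of the arrays (371 rose, 468 fell) and 45.1% after centring each array on its median (294 rose, 358 fell). Mimic 3 was the lowest of the mimic arrays in 211 of the 293 genes that fell, mimic 1 in 53 and mimic 2 in 29. The genes that fell had median distances from the control mean of -0.36, -0.30 and -0.45 on mimic 1, 2 and 3, and the genes that rose had 0.33, 0.39 and 0.31. These values describe sets that were called on the same arrays. The number of calls fell by over 1.5 times when any control or mimic 1 was left out, to 133 without control 1, 171 without control 2, 141 without control 3 and 188 without mimic 1. Of 161 genes chosen by a naming rule, 67 (39 falls and 28 rises) kept their call in each of the 6 fits that left out 1 control or mimic array. Genes given below with values on every array are of that kind unless their limit is stated.

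**Figure D2:**
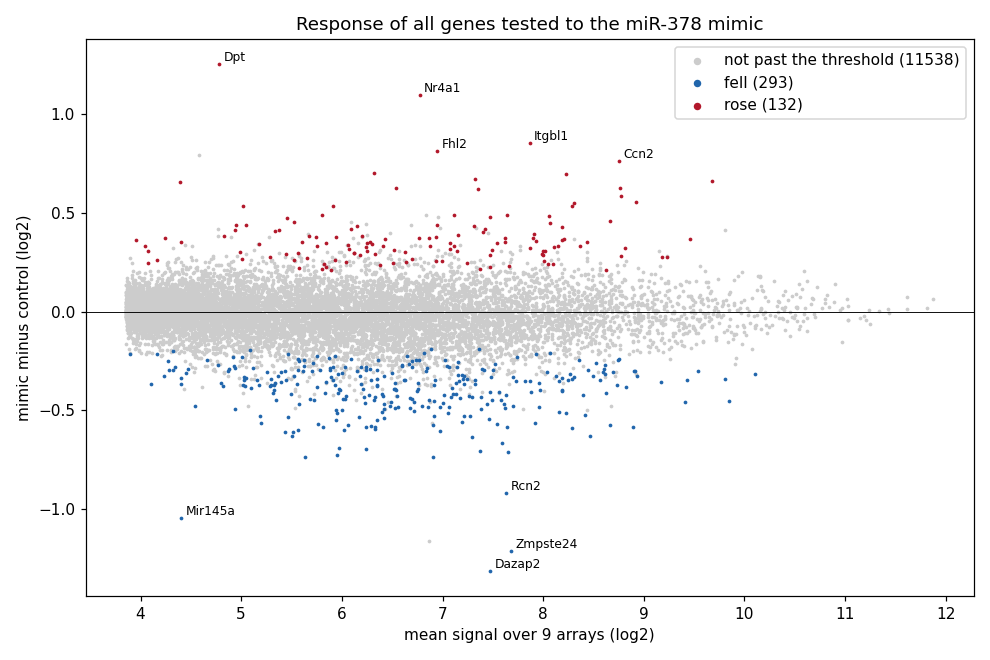
Mean signal over the 9 arrays (log2) on the horizontal axis against mimic minus control (log2) on the vertical axis for the 11963 genes tested, with 293 falls in blue, 132 rises in red and the rest in grey; genes that rose or fell by over 0.75 are named. Most genes sit close to 0 and calls become frequent towards higher signal. The unlabelled grey point near -1.16 is Usp17ld, whose value rests on mimic 3.

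The gene that fell most was Dazap2, which encodes a small proline-rich adaptor protein. Its signal was 7.91, 7.85 and 7.99 on the controls and 7.02, 6.63 and 6.16 on mimic 1, 2 and 3. All mimic arrays lay below all controls, and they differed among themselves far more than the controls did. The change was -1.31 ± 0.17 (SE, n = 3 per group; adjusted p = 0.00324), and -1.09 without mimic 3. Zmpste24, the zinc metalloprotease that cuts prelamin A to lamin A, gave 7.95, 7.92 and 8.02 on the controls and 6.88, 7.04 and 6.33 on the mimic arrays. Again the groups were clearly apart and mimic 3 was lowest. It fell by 1.21 ± 0.15 (SE; adjusted p = 0.00283), and by 1.00 without mimic 3.

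Rcn2, reticulocalbin 2, which binds calcium in the endoplasmic reticulum, was at 7.90, 7.92 and 7.99 on the controls and at 7.05, 7.20 and 6.81 with the mimic. The change was -0.92 ± 0.09 (SE; adjusted p = 0.0011), well beyond the spread of either group. Skp2, the F-box protein that marks the cell cycle inhibitor Cdkn1b for destruction, was at 5.68, 5.78 and 5.84 on the controls and at 5.09, 5.06 and 4.95 with the mimic. Here the mimic arrays were close to each other, and the fall was 0.74 ± 0.08 (SE; adjusted p = 0.00133). Vps26c, a subunit of the retriever complex that returns cargo from endosomes, read 7.21, 7.11 and 7.20 against 6.34, 6.55 and 6.43, a change of -0.73. Selenon, an endoplasmic reticulum selenoprotein, read 6.03, 6.12 and 6.26 against 5.49, 5.51 and 5.25, a change of -0.72. In both genes the gap between the groups was wider than either group.

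The probe set annotated to the microRNA gene Mir145a fell with the smallest adjusted p of the comparison. It was at 5.07, 5.06 and 5.20 on the controls and at 4.01, 4.17 and 4.03 with the mimic, a change of -1.04 ± 0.06 (SE; adjusted p = 8.7e-05). The values were as tight within the mimic group as within the controls, and the mimic level was near the level filter. The value is that of the probe set and is not a measurement of the mature microRNA.

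Other falls that held in each fit were those of Arrdc4 (-0.69), an arrestin-related protein of glucose uptake, Aacs (-0.67), which makes acetoacetyl-CoA for lipid synthesis, Mki67 (-0.63), the Ki-67 protein of dividing cells, and Stmn1 (-0.63), the microtubule-destabilizing protein stathmin. Ltbp1, which stores latent TGF-beta in the matrix, fell by 0.71 (adjusted p = 0.0167), Spns1, a lysosomal lipid transporter, by 0.69 (adjusted p = 0.0219) and Cdk19, a kinase of the mediator complex, by 0.70 (adjusted p = 0.0369). The calls of Ltbp1, Spns1 and Cdk19 ended without control 1, 2 or 3 or mimic 1, with adjusted p up to 0.0894, 0.109 and 0.138. Without mimic 3 their changes were -0.54, -0.59 and -0.50, and that of Arrdc4 was -0.56. Alg2, an enzyme of N-glycan assembly, fell by 0.63 (0.51 without mimic 3). Its call ended without control 1 or control 3 (adjusted p up to 0.0582). Usp17ld, chosen here after its value was seen because its difference is among the largest, differed by -1.16 without passing the threshold (adjusted p = 0.484). It gave 7.92, 7.09 and 7.55 on the controls and 7.77, 7.02 and 4.29 on the mimic arrays, so the low mean came from mimic 3. Its gene belongs to a family of near-identical copies whose probes can be shared.

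**Figure D3:**
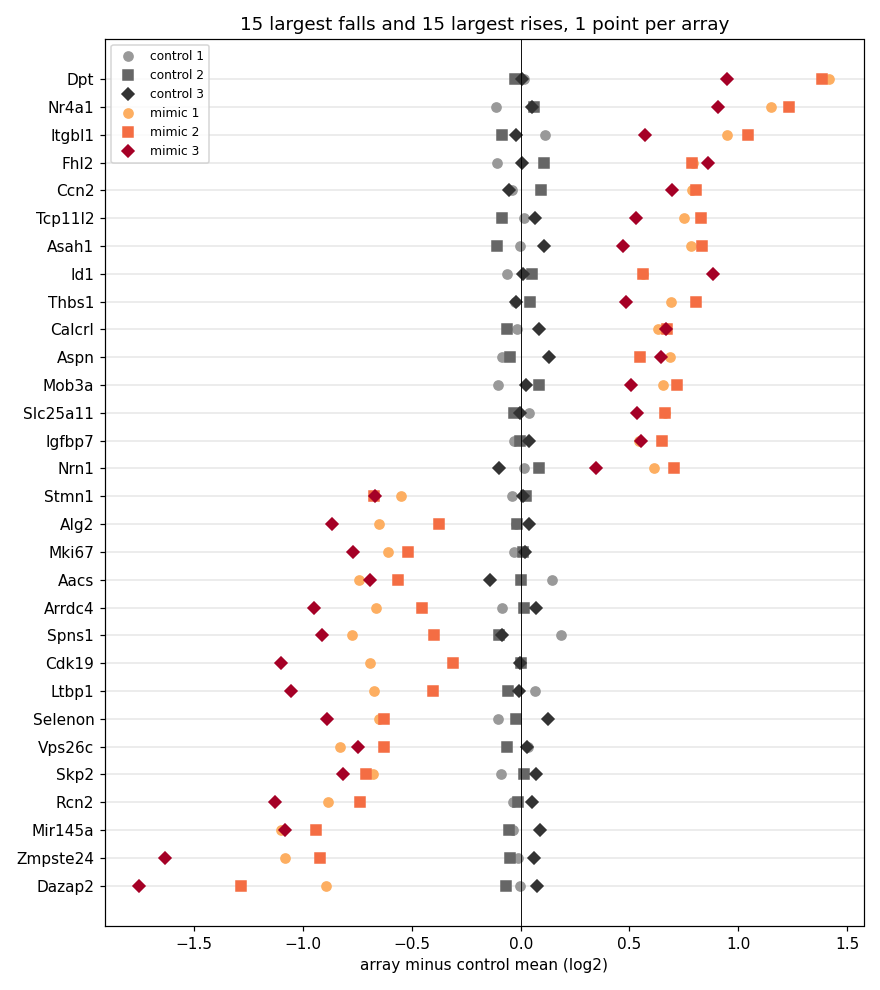
Distance of each array from the control mean (log2) for the 15 largest rises and the 15 largest falls among genes past the threshold with groups that do not overlap, 1 point per array, greys for controls and warm colours for mimic arrays. All mimic points lie outside the control points; for Dazap2, Zmpste24, Cdk19 and Ltbp1 mimic 3 is the lowest array, and for Dpt and Itgbl1 it is nearest to the controls.

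The largest rise was that of Dpt, dermatopontin, a small matrix protein that binds decorin and collagen. Its signal was 4.43, 4.39 and 4.42 on the controls and 5.83, 5.80 and 5.36 with the mimic. The control level was low and steady, and every mimic array was well above it. The rise was 1.25 ± 0.10 (SE, n = 3 per group; adjusted p = 0.000444), and 1.40 without mimic 3. Nr4a1, an orphan nuclear receptor induced by many stimuli, was at 5.88, 6.05 and 6.04 on the controls and at 7.14, 7.22 and 6.90 with the mimic, a rise of 1.10 ± 0.09 (SE; adjusted p = 0.000336). Itgbl1, a secreted protein with repeats like those of beta integrins, was at 7.83, 7.64 and 7.70 against 8.67, 8.77 and 8.29. It rose by 0.85, and by 1 without mimic 3, which was lowest of its group and still above the controls.

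Fhl2, a LIM protein of the actin cytoskeleton and nucleus, was at 6.38, 6.60 and 6.50 on the controls and at 7.29, 7.28 and 7.36 with the mimic. Ccn2, the matricellular connective tissue growth factor, was at 8.11, 8.25 and 8.10 and at 8.94, 8.96 and 8.85. In both genes the mimic arrays were nearly equal, and the rises of 0.81 ± 0.06 and 0.76 ± 0.06 (SE) shared the smallest adjusted p among the rises, 0.000244. Tcp11l2 rose by 0.70, from 6.25, 6.15 and 6.30 to 6.98, 7.06 and 6.76. Asah1, the acid ceramidase of lysosomes, rose by 0.70, from 7.79, 7.68 and 7.89 to 8.57, 8.62 and 8.26. Its rise was 0.81 without mimic 3. Id1, an inhibitor of basic helix-loop-helix factors, rose by 0.67, and here mimic 3 was the highest array (7.50, 7.50 and 7.82 against 6.87, 6.99 and 6.95).

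Further rises that held in each fit were Thbs1 (0.66), the matrix protein thrombospondin 1, Calcrl (0.66), the receptor chain for calcitonin-related peptides, Mob3a (0.62), Slc25a11 (0.62), the mitochondrial oxoglutarate carrier, and Igfbp7 (0.58), a secreted binding protein of insulin-like growth factors. The mean signal of Calcrl was low, at 4.39. Copz2, a subunit of the COPI vesicle coat, rose by 0.46 and Sec23a, of the COPII coat, by 0.48. Aspn, the small leucine-rich proteoglycan asporin, rose by 0.63, but its call ended without control 1, 2 or 3 or mimic 1 (adjusted p up to 0.126). Nrn1, neuritin, rose by 0.55, and its call ended without control 1, control 3 or mimic 1 (adjusted p up to 0.0663).

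The genes were also read by lists of known function, 65 lists with 1904 genes, of which 1640 were tested. The lists were written with earlier results of these data known, so their counts and ranks describe the data and are no independent support. In all genes tested 2.45% fell and 1.10% rose, and the counts below are to be set against these shares. The shares depended on signal. In the brightest signal class 4.25% fell and 2.24% rose, and in the dimmest 0.301% and 0.201%. For a list of bright genes the share over all genes is thus a low measure. The lists with the highest share of falls were those of mitosis, DNA replication and lipid synthesis, and those with the highest share of rises were the immediate early factors and matrix glycoproteins.

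**Figure D4:**
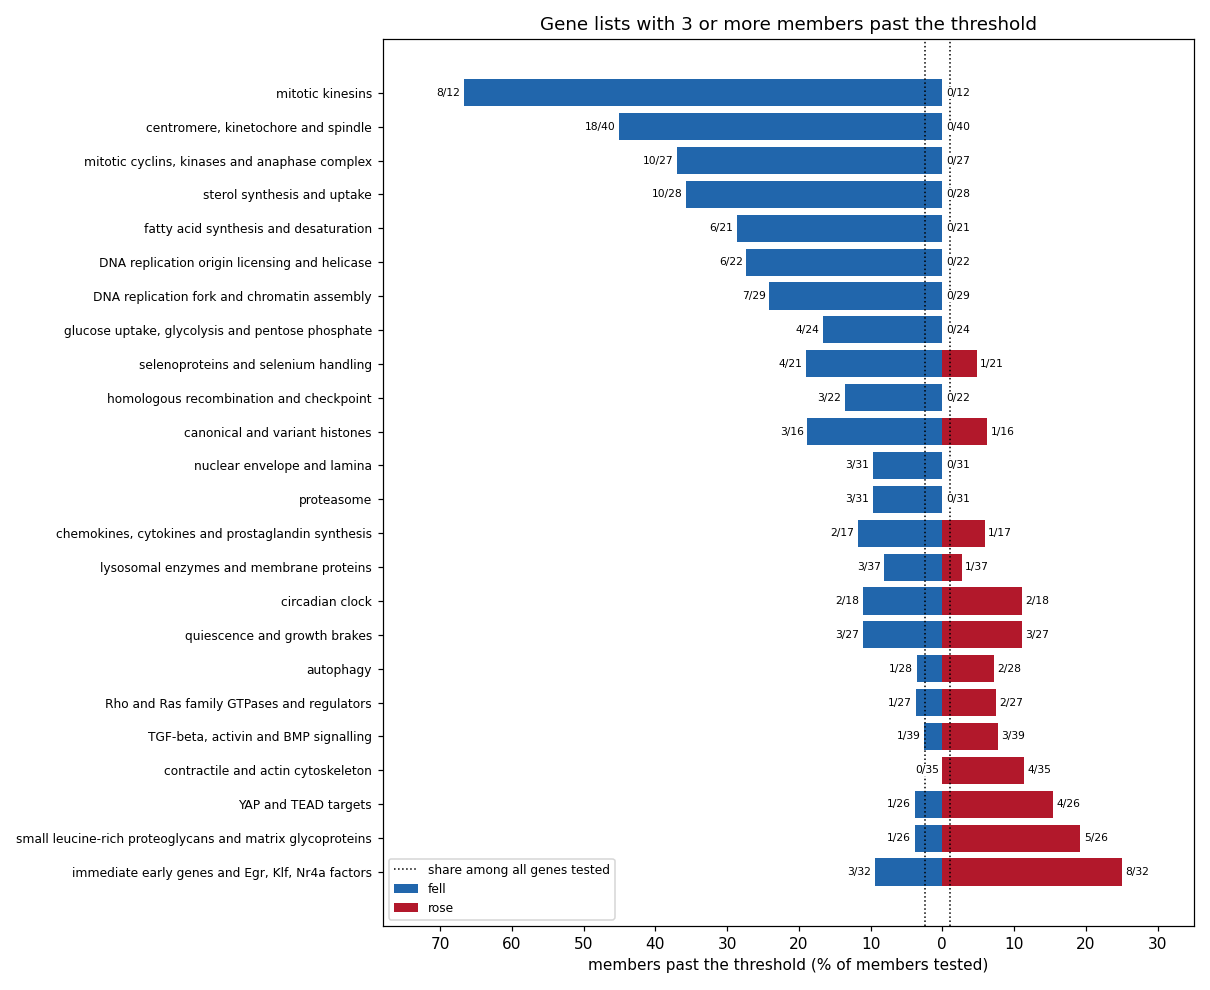
Share of tested members that fell (blue, to the left) or rose (red, to the right) in each list with 3 or more members past the threshold, with counts beside the bars; dotted lines mark the shares among all genes tested (2.45% and 1.10%). Mitotic kinesins (8 of 12), centromere and spindle genes (18 of 40) and mitotic cyclins and kinases (10 of 27) have the longest bars among falls, with no rise, and immediate early factors (8 of 32) the longest among rises.

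Mitosis was covered by 3 lists. Of 12 mitotic kinesins, motors that build the spindle and split the cells, 8 fell and 0 rose, with a median change of -0.34. Of 40 genes of the centromere, kinetochore and spindle, 18 fell and 0 rose (median -0.30). Of 27 mitotic cyclins, kinases and anaphase genes, 10 fell and 0 rose (median -0.26). The median over all genes tested was -0.01. Members below 0 numbered 12 of 12, 40 of 40 and 26 of 27. The list medians on mimic 1, 2 and 3 were -0.31, -0.23 and -0.50 for the kinesins, -0.29, -0.20 and -0.38 for the centromere genes and -0.28, -0.21 and -0.35 for the cyclins and kinases, with control arrays between -0.04 and 0.05. Each mimic array was thus lower than each control in all these lists, and mimic 3 was lowest. Without mimic 3, 6 kinesins, 15 centromere genes and 11 cyclin and kinase genes fell. The smallest counts were 1, 6 and 6, all reached without control 1. The kinesin count was also 1 without control 3 or mimic 1. The cyclin and kinase count was also 6 without control 2 or control 3.

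Among the single genes of mitosis, Mki67 read 7.47, 7.51 and 7.52 on the controls and 6.89, 6.98 and 6.73 with the mimic. Kif20a, the kinesin of the central spindle, read 7.22, 7.25 and 7.33 against 6.71, 6.85 and 6.71 and fell by 0.51. Aurka, the kinase of the spindle poles, read 6.98, 6.96 and 6.99 against 6.47, 6.63 and 6.40 and fell by 0.48. In these genes the controls were close together and the mimic arrays lay well below them. Cenpf, of the outer kinetochore, fell by 0.59 and Cdc20, the activator of the anaphase complex, by 0.43. Further falls that held in each fit were those of cell division genes outside these lists, Fbxo5 (-0.60), the early mitotic inhibitor of the anaphase complex, Cep55 (-0.49), of the midbody, Psrc1 (-0.55), of the spindle, and Reep4 (-0.49), which clears membranes from mitotic chromosomes. Aspm, of the spindle poles, fell by 0.60, and its call ended without control 1 (adjusted p = 0.0508). Kif2c (-0.54), Kif23 (-0.48), Kif11 (-0.43), Bub1b (-0.53), Knl1 (-0.57) and Ncapg (-0.58) also fell. Their calls ended without control 1, without control 3 or without mimic 1, and, apart from Kif2c, without control 2. Without mimic 3 the changes of Bub1b and Ncapg were -0.4 and -0.44.

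The promoters of Mki67 and Aspm are shown because mitotic genes often carry the CHR element, TTTGAA, through which they are held down outside late cell cycle. Each window, from RefSeq (GRCm38.p6), runs from 250 bases before to 50 bases after the start of the gene, in the direction of transcription, with the element in capitals. Mki67 lies on the minus strand, chr7:135716330-135716629, and Aspm on the plus strand, chr1:139454523-139454822.
Mki67: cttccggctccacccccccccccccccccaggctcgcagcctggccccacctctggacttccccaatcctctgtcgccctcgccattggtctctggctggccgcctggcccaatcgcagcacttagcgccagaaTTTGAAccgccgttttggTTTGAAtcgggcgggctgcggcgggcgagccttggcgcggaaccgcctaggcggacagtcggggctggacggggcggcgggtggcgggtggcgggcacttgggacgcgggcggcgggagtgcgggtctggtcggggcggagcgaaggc
Aspm: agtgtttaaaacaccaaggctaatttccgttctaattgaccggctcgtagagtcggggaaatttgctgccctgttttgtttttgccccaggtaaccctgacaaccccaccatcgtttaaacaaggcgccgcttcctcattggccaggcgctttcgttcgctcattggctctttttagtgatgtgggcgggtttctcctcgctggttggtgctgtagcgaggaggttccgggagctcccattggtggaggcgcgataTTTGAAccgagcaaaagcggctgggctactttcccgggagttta
TTTGAA was searched on both strands. It was present in 60.6% of the promoters of the 3 mitosis lists (40 of 66), in 28.5% of those of all genes that fell, in 9.09% of those of genes that rose and in 13.9% of the 9538 tested genes with a promoter in the RefSeq table. CCAAT, the box bound by NF-Y, was present in 72.7% of the mitosis promoters and in 42.7% of all. These shares are a description and were given no test.

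DNA replication was covered by 2 lists. Of 22 genes of origin licensing and the replicative helicase, 6 fell and 0 rose (median -0.21), and of 29 genes of the replication fork and chromatin assembly, 7 fell and 0 rose (median -0.20). Below 0 lay 21 of 22 and 29 of 29. The medians on mimic 1, 2 and 3 were -0.17, -0.14 and -0.32 for licensing and -0.20, -0.14 and -0.29 for the fork. Without mimic 3 the counts were 5 and 7. The smallest count was 2 for licensing, without control 1, control 2 or mimic 1. For the fork it was 1, without control 1, 2 or 3. Mcm3, a subunit of the MCM helicase, was at 7.61, 7.56 and 7.52 on the controls and at 7.07, 7.12 and 6.78 with the mimic, a fall of 0.57 ± 0.08 (SE; adjusted p = 0.00556). Mcm5, of the same ring, was at 6.77, 6.68 and 6.63 and at 6.22, 6.25 and 6.13, a fall of 0.49 ± 0.05 (SE; adjusted p = 0.00161). The histone chaperone Asf1b fell by 0.45. Dbf4 (-0.51), the partner of the Cdc7 kinase, Mcm6 (-0.41), Uhrf1 (-0.49), the reader of newly copied methylated DNA, and Lig1 (-0.42), the ligase of the lagging strand, fell too, with calls that ended without control 1, 2 or 3 or mimic 1. Of 22 nucleotide synthesis genes 2 fell and 0 rose (median -0.15, and -0.09 without mimic 3), and of 22 genes of homologous recombination and checkpoints 3 fell and 0 rose (median -0.15, and -0.11 without it). In nucleotide synthesis 0 fell without control 1, control 2 or mimic 1. Among recombination and checkpoint genes 0 fell without control 1, 2 or 3.

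The promoters of Mcm3 and Mcm5 are shown with E2F sites in capitals, in the form TTCCCGC for Mcm3 and TTGGCGC for Mcm5, or their reverse complements GCGGGAA and GCGCCAA, since E2F factors switch on replication genes. Capitals mark only the form named for each gene, and the end of the Mcm3 window also holds the other form in lower case. Mcm3 lies on the minus strand, chr1:20820263-20820562, and Mcm5 on the plus strand, chr8:75109259-75109558, both in GRCm38.p6 as above.
Mcm3: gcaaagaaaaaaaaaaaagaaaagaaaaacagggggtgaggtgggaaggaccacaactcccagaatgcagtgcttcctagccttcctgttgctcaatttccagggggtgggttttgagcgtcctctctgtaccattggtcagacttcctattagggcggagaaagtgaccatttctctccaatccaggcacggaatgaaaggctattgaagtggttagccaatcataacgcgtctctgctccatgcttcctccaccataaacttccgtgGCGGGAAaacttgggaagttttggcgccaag
Mcm5: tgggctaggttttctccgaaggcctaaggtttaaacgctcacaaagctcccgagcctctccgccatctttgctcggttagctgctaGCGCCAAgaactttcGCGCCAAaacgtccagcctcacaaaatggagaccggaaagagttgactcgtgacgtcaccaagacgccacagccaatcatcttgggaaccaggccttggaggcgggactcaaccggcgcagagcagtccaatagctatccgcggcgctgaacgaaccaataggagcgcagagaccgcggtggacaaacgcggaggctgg
The first form was present in 44.2% of the promoters of the replication lists (19 of 43) and in 9.68% of all, and the second in 25.6% (11 of 43) and 4.89%. In the mitosis promoters the shares were 10.6% and 12.1%. TTTGAA was present in 20.9% of the replication promoters.

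Of 28 G1 cyclins, E2F factors and cell cycle inhibitors, 2 fell and 0 rose, 17 lay below 0 and the median was -0.04. At an unadjusted p below 0.05 10 of the 28 were past it, where the share over all genes tested was 15.9%. The members that fell were Skp2 and E2f5 (-0.21), whose call ended without control 1, 2 or 3 or mimic 1 or 2. Of 24 p53 target genes 2 fell and 0 rose (median -0.03), but without mimic 3 there were 2 falls and 3 rises (median 0.00), and 2 of each after quantile normalization or median centring. Of 23 genes of apoptosis and the Bcl2 family 2 fell and 0 rose (median -0.05), and without mimic 3, 2 fell and 1 rose.

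**Figure D5:**
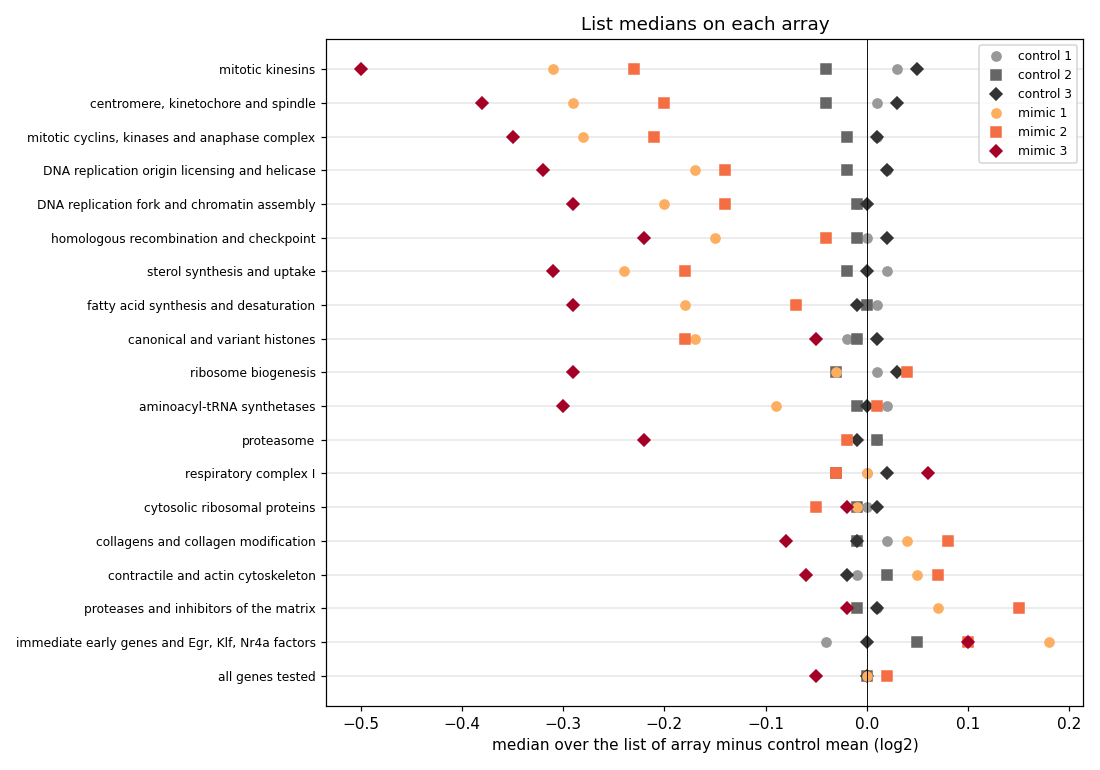
Median over the tested members of each list of the distance from the control mean (log2), 1 point per array, for lists with many calls, comparison lists and all genes tested. The lists of mitosis, replication and sterol synthesis are lower on all 3 mimic arrays than on any control; for ribosome biogenesis, aminoacyl-tRNA synthetases and the proteasome mimic 3 alone is far below 0.

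Sterol synthesis and uptake was the metabolic list with the most falls. Of 28 tested members 10 fell and 0 rose, 24 lay below 0, and the median was -0.25 (-0.22 without mimic 3, when 11 fell). On mimic 1, 2 and 3 the list median was -0.24, -0.18 and -0.31. The smallest count was 5, without control 1 or control 3. Aacs was at 7.94, 7.80 and 7.66 on the controls and at 7.06, 7.24 and 7.11 with the mimic. The controls were spread more widely than the mimic arrays, and the groups remained apart. The fall was 0.67 ± 0.07 (SE; adjusted p = 0.0017). Sqle, squalene epoxidase, was at 8.78, 8.74 and 8.69 against 8.31, 8.44 and 8.23 and fell by 0.41. Mvk, mevalonate kinase, fell by 0.39, from 6.73, 6.61 and 6.65 to 6.34, 6.24 and 6.23. Idi1, the isopentenyl isomerase, fell by 0.51, with a call that ended without control 1 or control 3 (adjusted p up to 0.0789). Hmgcs1, the synthase that opens the pathway, lies outside the naming rule and was chosen for its promoter. It gave 8.92, 8.88 and 8.98 against 8.55, 8.69 and 8.40, a change of -0.38 (adjusted p = 0.0238), and its call ended without control 1, 2 or 3 or mimic 1 (adjusted p up to 0.112).

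The promoter of Hmgcs1, on the plus strand at chr13:119690101-119690400 (GRCm38.p6), is shown with the core sterol regulatory element in capitals, as the member of the list in which the letters TCACCCCAC were found.
Hmgcs1: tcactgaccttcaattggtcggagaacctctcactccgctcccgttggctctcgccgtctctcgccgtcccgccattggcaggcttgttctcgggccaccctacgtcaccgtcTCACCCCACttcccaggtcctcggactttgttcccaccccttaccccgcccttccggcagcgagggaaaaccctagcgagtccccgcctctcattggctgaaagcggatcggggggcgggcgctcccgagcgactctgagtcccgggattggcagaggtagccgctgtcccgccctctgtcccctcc
TCACCCCAC was present in 1 of the 23 sterol promoters and in 0.702% of all promoters, a strict form of an element that varies. CCAAT was present in 20 of the 23 (87.0%), against 42.7% of all.

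Of 21 genes of fatty acid synthesis and desaturation, 6 fell and 0 rose (median -0.18). The medians on the mimic arrays were -0.18, -0.07 and -0.29, so mimic 2 was close to the controls. Without mimic 3, 5 fell, and the smallest count was 1, without control 1, 2 or 3. Slc25a1, the mitochondrial citrate carrier, fell by 0.35, and its call held in every fit. Me1 (-0.53), the malic enzyme that gives NADPH, and Elovl6 (-0.47), a fatty acid elongase, fell too. Their calls ended without control 1, 2 or 3, and that of Elovl6 also without mimic 1. Without mimic 3 their changes were -0.41 and -0.35. In oxidation and respiration, 1 of 26 genes of fatty acid oxidation fell, 0 of 34 complex I subunits and 1 of 39 subunits of complexes II to V, and 0 rose. The list medians were -0.02, 0.01 and -0.02. At an unadjusted p below 0.05 the lists held 7 (3 lower and 4 higher), 2 and 4 members. The share over all genes tested was 15.9%, and the 7 of 26 in fatty acid oxidation were a larger share. The fatty acid oxidation count turned with the setting: without mimic 3, 0 fell and 2 rose (median 0.05), and after quantile normalization 2 fell and 4 rose. Without mimic 3, complex I had 1 rise. Of 27 genes of the citric acid cycle and pyruvate use, 0 fell and 2 rose.

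In glucose use, 4 of 24 genes fell and 0 rose (median -0.07). Tkt, transketolase of the pentose phosphate pathway, was at 6.60, 6.60 and 6.50 on the controls and at 6.12, 6.04 and 6.05 with the mimic, a fall of 0.49 ± 0.05 (SE; adjusted p = 0.0011). Arrdc4 was at 6.08, 6.18 and 6.24 against 5.50, 5.71 and 5.21. Its relative Txnip fell by 0.30, with a call that ended without any of the controls, mimic 1 or mimic 3. Both genes are activated by the glucose-sensing MondoA and ChREBP factors. Of 16 hypoxia response genes 0 passed the threshold, with 8 (4 lower and 4 higher) at an unadjusted p below 0.05, a larger share than the 15.9% of all genes, and 2 fell without mimic 3. The smallest count for glucose use was 2, without control 1, control 2 or mimic 1.

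Of 31 nuclear envelope and lamina genes 3 fell and 0 rose (median -0.09, and -0.02 without mimic 3): Zmpste24, Tmpo (-0.43), which encodes the lamina-associated polypeptides LAP2, and Lmnb1 (-0.44), lamin B1, whose call ended without control 1, 2 or 3. Of 31 proteasome genes 3 fell and 0 rose (median -0.08, and -0.02 without mimic 3). Psma1, an alpha subunit of the core particle, was at 8.03, 8.16 and 8.09 on the controls and at 7.61, 7.62 and 7.37 with the mimic, a fall of 0.56 ± 0.07 (SE; adjusted p = 0.00301). Of 33 chaperones of the endoplasmic reticulum 1 fell, Rcn2, and 1 rose, Dnajb9 (0.54), whose call ended without control 1, control 2 or mimic 1. Without mimic 3 this list had 1 fall and 4 rises, and 1 and 3 after quantile normalization or median centring. The smallest count was 2 for the nuclear envelope, without control 1, 2 or 3. For the proteasome it was 1, without control 1, 2 or 3 or mimic 1. Emc3, of the membrane protein insertion complex, fell by 0.48, and its call held in every fit.

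Of 21 selenoproteins and genes of selenium handling, 4 fell and 1 rose (median -0.01). Beside Selenon these were Eefsec (-0.48), the elongation factor that inserts selenocysteine, Gpx1 (-0.33), the glutathione peroxidase, Selenoh (-0.31) and, upward, Selenos (0.32). Eefsec and Selenoh lost their calls without control 1 or control 3, Selenos without control 1, and Gpx1 without control 1, control 3, mimic 1 or mimic 2. Without control 1 the list had 1 fall and 0 rises. On the mimic arrays the list median was -0.01, 0.03 and -0.14.

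Signalling genes with falls in every fit were few. Akt1, the kinase below PI3K, was at 8.56, 8.60 and 8.53 on the controls and at 8.10, 8.11 and 7.91 with the mimic, a fall of 0.52 ± 0.06 (SE; adjusted p = 0.00203). It was the single member of 26 in the list of insulin, PI3K and mTOR signalling that fell, and 0 rose. Dusp10, a phosphatase of stress-activated MAP kinases, fell by 0.40, and Errfi1, a feedback inhibitor of the EGF receptor, rose by 0.53, the only calls among 22 genes of MAP kinase feedback, which had 1 fall and 3 rises without mimic 3. Spry3, a Sprouty inhibitor of receptor tyrosine kinases, was at 4.72, 4.68 and 4.72 against 4.24, 4.26 and 4.19, a fall of 0.48 at low signal. Nid1, the basement membrane protein nidogen, fell by 0.58, from 8.86, 8.87 and 8.86 to 8.25, 8.47 and 8.12.

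The immediate early list, with Egr, Klf, Nr4a and Id factors, had the highest share of rises. Of 32 tested members 8 rose and 3 fell, and the median was 0.15, with list medians of 0.18, 0.10 and 0.10 on mimic 1, 2 and 3 and -0.04, 0.05 and 0.00 on the controls. Without mimic 3, 12 rose and 3 fell, and the smallest count of rises was 4, without control 1, control 3 or mimic 1. Beside Nr4a1 and Id1, Klf2, a factor known from endothelium and quiescent cells, rose by 0.54, from 5.62, 5.88 and 5.67 to 6.22, 6.30 and 6.25. Id2 rose by 0.55, from 7.99, 8.18 and 8.08 to 8.72, 8.59 and 8.59. The other 3 called members fell, in every fit. Zfp36, tristetraprolin, which destabilizes messages with AU-rich elements, fell by 0.61 (5.79, 5.91 and 6.03 against 5.39, 5.30 and 5.21). Fos fell by 0.37, at a mean signal of 4.1 near the level filter, and Ier2 by 0.45.

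In the matrix, 5 of 26 small leucine-rich proteoglycans and matrix glycoproteins rose and 1 fell (median 0.02), with Dpt, Itgbl1 and Thbs1 rising in every fit. The rises numbered 6 without mimic 3 and at least 4 in every fit. Of 28 genes of collagens and collagen modification 0 rose and 1 fell (median 0.01). At an unadjusted p below 0.05 there were 6 (2 lower and 4 higher), where the share over all genes tested was 15.9%. Of 22 matrix proteases and inhibitors 2 rose and 0 fell (median 0.10), and 4 rose without mimic 3 or after quantile normalization. When control 1, 2 or 3 or mimic 1 was left out, 0 rose. Among 26 reported YAP and TEAD targets 4 rose (Ccn2, Fhl2, Thbs1 and Cdc42ep3, the last by 0.48) and 1 fell, with a median of 0.01. All 4 that rose were also higher with the inhibitor than with the control, as given below. Among 35 genes of the contractile and actin cytoskeleton 4 rose and 0 fell (median 0.02); these were Ccn2 and Fhl2 again, Pdlim7 (0.35) and vinculin, Vcl (0.43), whose call ended without any of the controls, mimic 1 or mimic 2. In the list of TGF-beta, activin and BMP signalling 3 of 39 rose, Id1, Id2 and the inhibitory Smad7 (0.38), and 1 fell, Ltbp1. Without mimic 3 the rises numbered 6 among the YAP and TEAD targets, 6 among the contractile genes and 4 in the TGF-beta list. Hes1, a Notch-responsive repressor, rose by 0.47, and its call held in every fit.

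Of 16 canonical and variant histones and related proteins, 3 fell and 1 rose (median -0.17, with -0.17, -0.18 and -0.05 on mimic 1, 2 and 3). Hmgn2, which binds nucleosomes, fell by 0.46 (0.39 without mimic 3), from 9.53, 9.64 and 9.56 to 9.22, 9.16 and 8.97. The histone gene H2bc4 rose by 0.37, at a low mean signal of 4.24. Without mimic 3, 6 of these genes fell, and without control 1, control 3 or mimic 1 only 1. Of 27 genes linked to quiescence or growth restraint 3 fell and 3 rose (median 0.00), and of 18 circadian clock genes 2 fell and 2 rose (median -0.03). Without mimic 3 the rises in these lists were 5 and 4. Both lists also had fits without calls, the first without control 1 and the second without control 2, control 3 or mimic 1. Among genes outside the lists, Pimreg, a gene of mitosis, fell by 0.56, and Vkorc1, the vitamin K reductase, Trib2, a pseudokinase, Ifi27, an interferon-inducible gene, and Npr3, the clearance receptor of natriuretic peptides, rose by 0.49, 0.49, 0.44 and 0.41, with calls that held in every fit.

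Of 44 cytosolic ribosomal proteins 0 passed the threshold (median -0.03), as did 0 of 37 spliceosome and SR protein genes (median -0.08), 0 of 20 genes of the ATF4 amino acid stress response (median -0.03) and 0 of 18 interferon-stimulated and antigen presentation genes (median -0.04). At an unadjusted p below 0.05 these lists had 3, 5, 9 and 2 members. Against the 15.9% of all genes, the 9 of 20 in the ATF4 list (6 lower and 3 higher) were the larger share. Of 39 ribosome biogenesis genes 2 fell and 0 rose, and of 20 aminoacyl-tRNA synthetases 1 fell and 0 rose. Their medians of -0.10 and -0.13 came from mimic 3, where they were -0.29 and -0.30, against -0.03 and -0.09 on mimic 1 and 0.04 and 0.01 on mimic 2. Of 18 tested genes reported as miR-378 targets in the literature, 1 fell and 0 rose, in a range from -0.21 to 0.14 with a median of -0.02. The member that fell was Casp9 (-0.21; adjusted p = 0.0254), and its call ended without any of the controls, mimic 1 or mimic 2 (adjusted p up to 0.117).

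The same genes were read on the 3 inhibitor arrays, whose comparison with the control shares the control arrays, so the values are given side by side. For Dazap2 the inhibitor differed from the control by -0.03, and the mimic lay 1.29 below the inhibitor (adjusted p = 0.000486). For Rcn2 the values were 0.01 and -0.93 (adjusted p = 0.000108), and for Dpt -0.15 and 1.40 (adjusted p = 2.65e-05). Mir145a was lower by 1.07 with the inhibitor and by 1.04 with the mimic, but both groups lay near the level filter, so these values have little room to differ. Nr4a1 was higher by 1.25 with the inhibitor and by 1.10 with the mimic, with a difference of -0.16 (adjusted p = 0.207), and Zfp36 was lower by 0.60 and by 0.61, with a difference of -0.01 (adjusted p = 0.908). Ccn2 was higher by 1.05 and by 0.76. Thbs1 (0.90), Asah1 (0.635), Fhl2 (0.55), Nrn1 (0.54), Id1 (0.47), Cdc42ep3 (0.32), Mob3a (0.27) and Slc25a11 (0.22) were higher with the inhibitor too. Each of these differences from the control had an adjusted p below 0.05. Of the other large rises, Tcp11l2 and Aspn were lower with the inhibitor (-0.43 and -0.83). Calcrl and Igfbp7 differed from the control by 0.07 and -0.05. Since both comparisons use the same 3 controls, a deviation of the controls enters both values of a gene.

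Other genes lay on opposite sides of the control. Mcm3 was higher by 0.52 with the inhibitor (adjusted p = 0.0029) and lower by 0.57 with the mimic, and mimic minus inhibitor was -1.09 (adjusted p = 3.47e-05). Mcm5 gave 0.44 and -0.49, with a difference of -0.93 (adjusted p = 1.39e-05), and Skp2 gave 0.35 and -0.74, with a difference of -1.08 (adjusted p = 2.28e-05). Nid1 gave 0.68 and -0.58. In the other direction, Itgbl1 was lower by 0.43 with the inhibitor and higher by 0.85 with the mimic. For the mitotic genes Mki67, Aurka and Kif20a the inhibitor values were 0.03, -0.06 and -0.13, none past the threshold, and each was lower with the mimic than with the inhibitor, by 0.66, 0.42 and 0.38 (adjusted p = 0.000328, 0.000729 and 0.00125).

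The labelled cell type was checked by its markers. Of 13 fibroblast markers 12 passed the level filter, among them Col1a1, Col1a2, Vim and Fn1 with mean signals of 10.97, 11.24, 11.19 and 10.89 over the 9 arrays, and Fap, at 3.24, did not. Of these 12 only Thy1 changed, a rise of 0.38 (adjusted p = 0.00823). Of 20 defining genes of blood, epithelial, endothelial, muscle, fat, neural and liver cells, 8 passed the filter, the highest being Cd3e at 4.62, and 0 changed (1 at an unadjusted p below 0.05). The other 12 were below the filter.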

How the data were processed

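RNA was purified with a miRNeasy kit, copied to cDNA and, per the labels' protocols, hybridised to Affymetrix whole-transcript arrays. The values used are the authors' deposited log2 signals of each probe set, and the submitters' processing notes name Partek 6.5 and RMA. For the probe sets' genome build, the sources used here give none.

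Of 28853 probe sets, 21789 were annotated to 1 gene, 1621 to several and 5443 to none. Genes were named from the first kind, and 19856 of 19938 matched a RefSeq table. For the 999 genes with several probe sets, that with the highest mean over 9 arrays was used. Genes below the 40th percentile of mean signal were left out, which left 11963.

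All 9 arrays entered 1 limma fit with group means (version 3.58.1, R 4.3.3; lmFit, then eBayes), with 6 degrees of freedom from the residuals and 4.37 from the prior, and p-values were adjusted by Benjamini-Hochberg over all genes tested. Standard errors are the moderated ones. The median moderated SD was 0.08, and the number of arrays limits the precision. The fit was checked on simulated data. Gene lists are described by counts and medians, with no test of a list. Genes are named by a rule: the 15 largest falls and rises among calls with groups that do not overlap, the 10 smallest adjusted p beyond these in each direction, the 5 largest of each in the brightest of 4 signal classes, and up to 4 called members of each list and direction. Alternatives were other level filters, quantile normalization, median centring, a fit of 6 arrays, a replicate block, leaving out each control or mimic array, averaging a gene's probe sets and moderation with trend. Array weights were tried after the data were seen, did not converge and were not used. The comparison, lists and rules were chosen with earlier results of these data known. Promoters are RefSeq windows (GRCm38.p6) matched by gene for 9538 of the genes tested. Python 3.11.15 with matplotlib 3.10.9 drew the figures.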

Additional observations from a re-analysis of the deposited data

Results flagged for a closer look

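Probe sets outside the gene table were tested in a fit over all probe sets. Among the 1621 annotated to several genes, 39 passed the threshold (36 lower and 3 higher with the mimic, 2.41%), and among the 5443 without a gene, 27 did (22 lower and 5 higher, 0.496%). In the same fit 304 of the 21789 probe sets with 1 gene passed it (1.40%). These are signals in data that the comparisons above do not use.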

How the results depend on the processing

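The counts of calls depended on the settings. Quantile normalization gave 839 calls (371 rises and 468 falls), of which 396 were among the original 425, and median centring gave 652 (294 rises), also with 396 of them. A fit of the 6 mimic and control arrays gave 248 calls (82 rises and 166 falls), with fewer residual degrees of freedom. Leaving out 1 control or mimic array gave 133 to 582 calls, 45 to 300 rises and 88 to 395 falls. No level filter (360 calls), the 60th percentile (413), moderation with trend (377) and the mean of all probe sets (434) stayed within 1.5 times. Deviations of same-numbered control and mimic arrays correlated at 0.15, -0.22 and -0.01. Over all pairs of arrays from different groups the values ran from -0.59 (mimic 2 and inhibitor 2) to 0.63 (mimic 2 and inhibitor 1). With 3 arrays per group these values cannot show whether the replicate numbers pair the samples. With the replicate number as a block, 289 genes passed (93 rises and 196 falls). Of the 161 named genes 0 changed direction under any of these settings. Of these genes 94 lost their call in at least 1 of the 6 fits that left out an array. In the fit of 6 arrays 61 of them lost it, with the replicate block 36, and without a level filter 34. The fit of 6 arrays had 2 falls among 12 mitotic kinesins, 2 among 29 replication fork genes and 8 among 28 sterol genes. The causes of these differences were not tested. Of the 7975 genes below the level filter, 3 passed the threshold when no filter was used. Signal over background limits what can be said of dim genes, where calls were few.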
